A study of Mus musculus with 6 samples.

Results

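Saa3, Ccl24, Mrc1, Nos2 and Chil3, 5 genes that mark states of macrophage activation, were followed in skin from 6 NINJA mice. The series holds 16158 genes in 21178 cells. The 5 genes were read in cells with at least 1 UMI of Lyz2, which encodes lysozyme, and at least 1 of Csf1r, which encodes the receptor for the growth factor CSF1. A UMI, or unique molecular identifier, stands for 1 captured RNA molecule. This gate held 1078 of the 21178 cells, and the 20100 other cells served as background. The genes were chosen by measured values, namely their levels in these cells of AG_CPI and AG mice, so that difference is given here as a description without a test.

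The NINJA line lets a neoantigen be switched on. All 6 mice were 6 to 12 weeks old, and the cells came from skin that had received 4-OH-Tam in every group. There were 2 mice in each of 3 groups, named NO_AG (antigen off), AG (antigen on) and AG_CPI (antigen on with CPI, a treatment that the labels do not spell out). Before sequencing, each mouse had been checked for visible skin disease and for P14 CD8 T cells in the skin, which carry a transgenic antigen receptor. The labels call the samples biological replicates and give neither sex nor batch nor date. A mouse is named by its group and replicate number, such as AG 2.

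Macrophages change their gene program with the cytokines around them. In textbook terms, interferon-gamma and bacterial products drive a classical state in which Nos2 makes nitric oxide from arginine, whereas IL-4 and IL-13 drive an alternative state with the mannose receptor Mrc1 and, in mice, the chitinase-like protein Chil3. Ccl24, or eotaxin-2, attracts eosinophils through the receptor Ccr3 and belongs with the alternative state in mice. Saa3 is the serum amyloid A of macrophages and other local cells, an acute-phase protein induced by IL-1, TNF and bacterial products.

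The 6 libraries held 1736 to 4972 cells each and 5903724 to 24656382 UMIs, with a median of 2527 to 4744 UMIs per cell. A pair of libraries shared 5 to 35 cell barcodes, at most 0.856% of the smaller library. The gate held 37 and 25 cells in the NO_AG mice, 156 and 440 in the AG mice, against 226 and 194 in the AG_CPI mice. Its share of all cells was 0.744% and 0.611% in NO_AG, 4.45% and 9.43% in AG, against 13.02% and 8.79% in AG_CPI. The group means were 0.677% ± 0.0945 (SD, n = 2), 6.94% ± 3.52 and 10.9% ± 2.99. Both AG mice and both AG_CPI mice lay above both NO_AG mice, and AG and AG_CPI overlapped. A two-sided exact permutation test of 2 against 2 mice cannot go below p = 0.33, which was its value for both comparisons with NO_AG. With few cells in NO_AG, a level of 0 there has wide limits, which are given below for Saa3 and Nos2.

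The gate was checked against markers. Lyz2 and Csf1r define the gate, so their presence among the monocyte and macrophage markers was set by design. They also enter the summed level that follows, Lyz2 with 29.8 (AG 2) to 84.9 (AG_CPI 1) UMIs per 10000. Csf1r adds 4.83 (AG 1) to 9.78 (NO_AG 2). All 11 monocyte and macrophage markers with a column were found in each library, and their summed level was 92.9 and 149.5 UMIs per 10000 UMIs of a cell in NO_AG, 201.8 and 147.3 in AG, against 237.9 and 224.8 in AG_CPI. Cd207, which encodes langerin of Langerhans cells, was found in 48.6% and 36.0% of gate cells in NO_AG, 12.8% and 2.73% in AG, against 3.98% and 5.15% in AG_CPI. The NO_AG gate thus held many cells with this marker, so tests of the 5 genes and of the main lists against NO_AG are also given for cells with no UMI of Cd207. For Saa3, Chil3 and the arginine list these values are given for AG_CPI only. The summed level of 6 keratinocyte markers was 7.79 and 6.90 in NO_AG, 11.4 and 12.3 in AG, against 4.08 and 2.17 in AG_CPI. Eosinophil markers were near 0, since Prg2 and Ccr3 had 0 UMIs in all 6 libraries and the sum, from Siglecf alone, was at most 0.0155. Neutrophil markers summed to 0.143 and 0.0974 in NO_AG, 0.253 and 0.618 in AG, against 0.822 and 0.695 in AG_CPI. Both AG_CPI mice thus lay above the others, and the part of these markers in the results was not tested. Dendritic markers summed to between 87.5 (NO_AG 2) and 169.0 (AG 1), mostly from H2-Ab1 (86.0 and 165.8 in these mice). For NO_AG 1 the dendritic sum of 94.2 lay above the monocyte and macrophage sum of 92.9. The T cell gene Cd3e was found in 8.0% (NO_AG 2) to 11.9% (AG_CPI 1) of gate cells.

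One library stood apart in its sex-linked genes. Xist, the RNA of the inactive X chromosome, was found in 83.8% and 72.0% of gate cells in NO_AG, 69.9% and 66.4% in AG, 3.98% in AG_CPI 1 and 73.2% in AG_CPI 2. Ddx3y, a Y-linked gene, had 38 UMIs in the gate of AG_CPI 1 and 0 in each other library. In the other cells of AG_CPI 1, Xist was found in 44.8% and Ddx3y in 5.50%. Whether this library holds cells of 1 mouse cannot be told from these values, and it is counted as 1 of the 2 AG_CPI mice, as labelled. Tests of AG_CPI against NO_AG for the 5 genes, and the counts of the main lists, are therefore also given without AG_CPI 1.

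The 5 genes lie on 5 chromosomes, and all are annotated by GENCODE as protein coding in GRCm38 (mm10). Saa3 lies at chr7:46711998-46715700 on the minus strand and Ccl24 at chr5:135569937-135573049 on the minus strand. Mrc1 lies at chr2:14229392-14332057 on the plus strand, Nos2 at chr11:78920787-78960254 on the plus strand, and Chil3 at chr3:106147554-106167564 on the minus strand. Of all 50-base windows of the transcripts, 26.9% in Chil3 occurred also in Chil4 or the gene Gm6522, and Chil4 had no column, so Chil3 values are uncertain. In Saa3 3.57% of the windows occurred in other genes, and in Ccl24, Mrc1 and Nos2 0 did.

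RefSeq promoter windows on GRCm38.p6 were found for 3 of the 5, and they are shown because Saa3 and Chil3 rose, and Mrc1 fell, between NO_AG and AG_CPI. Each window is the 250 bases before the annotated start, at chr7:46715677-46715926 (minus strand), chr2:14229164-14229413 (plus strand) and chr3:106167565-106167814 (minus strand). Capitals mark matches to TTNNGNAA, read on both strands, a short form of the site of C/EBP factors, which switch on acute-phase and myeloid genes.
Saa3: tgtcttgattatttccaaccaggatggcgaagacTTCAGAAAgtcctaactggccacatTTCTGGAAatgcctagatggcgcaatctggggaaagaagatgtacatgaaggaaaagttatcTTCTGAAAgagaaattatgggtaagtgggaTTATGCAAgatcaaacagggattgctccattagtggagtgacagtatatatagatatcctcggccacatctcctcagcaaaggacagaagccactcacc
Mrc1: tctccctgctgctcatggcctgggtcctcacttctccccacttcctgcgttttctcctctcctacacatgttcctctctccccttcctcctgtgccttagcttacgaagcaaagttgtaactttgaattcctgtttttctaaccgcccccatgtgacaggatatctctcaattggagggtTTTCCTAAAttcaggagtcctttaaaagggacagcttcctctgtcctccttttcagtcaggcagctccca
Chil3: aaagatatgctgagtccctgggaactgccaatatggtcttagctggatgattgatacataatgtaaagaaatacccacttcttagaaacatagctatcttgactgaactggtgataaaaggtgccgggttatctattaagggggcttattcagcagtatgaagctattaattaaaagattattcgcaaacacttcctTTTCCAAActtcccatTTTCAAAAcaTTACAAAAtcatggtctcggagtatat

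The Saa3 window held 4 matches, 99 to 216 bases before the start, the Chil3 window 3, at 27 to 53 bases, and the Mrc1 window 2 that overlap, at 69 and 70 bases. At least 1 match occurred in 36.8% of 32851 promoter windows of this length. The letters GGGNNNNNCC, a short form of the NF-kappaB site, occurred 0 times in Saa3 and once each in Mrc1 and Chil3, against 45.8% of windows with a match. The STAT letters TTCNNNGAA occurred once, in Chil3, 172 bases before its start, against 7.02% of windows. A STAT6 form with 1 more base in its centre, TTCNNNNGAA, was in none of the 3 and in 5.85% of all windows. The last 24 bases of the Saa3 window and 22 of the Mrc1 window lie inside the gene as GENCODE annotates it. A match describes the letters only.

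Across the 5 genes, AG was compared with NO_AG in the gate with limma on the 7686 genes that passed the filter on low values, which all 5 did. Of the 5, 2 passed a Benjamini-Hochberg adjusted p of 0.05, against 12.6% of all genes tested (8.59% higher and 4.05% lower). Nos2 rose and Mrc1 fell, while Saa3, Ccl24 and Chil3 did not pass. Without AG 2 only Mrc1 passed, against 2.32% of all genes, while Mrc1 and Nos2 both passed in cells with no UMI of Cd207, against 10.5%. AG_CPI differed from NO_AG in all 5, against 15.3% of all genes (9.82% higher and 5.48% lower), with Saa3, Nos2 and Chil3 higher and Ccl24 and Mrc1 lower. Both the AG and the AG_CPI mice entered the choice of these genes, so neither count is independent of it. Without AG_CPI 1, 4 of the 5 passed, against 4.03% of all genes, and Chil3 did not. Both comparisons share the NO_AG mice. Without the TMM scaling between libraries, on the deposited scale alone, the calls over all genes split into 447 higher and 464 lower in AG and 531 and 688 in AG_CPI, against 660 and 311 and 755 and 421 with it. The median change of all genes moved from 0.08 to -0.11 and from 0.08 to -0.13. Mice that did not overlap were common, as both AG mice lay above both NO_AG mice in 21% of genes and below in 32.4%, and both AG_CPI mice in 21.8% and 34.8%. Where a gene had 0 UMIs in both NO_AG mice, its fitted log2 change depends on the pseudocount of 0.1, and a fold is then given as a lower bound.

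**Figure D1:**
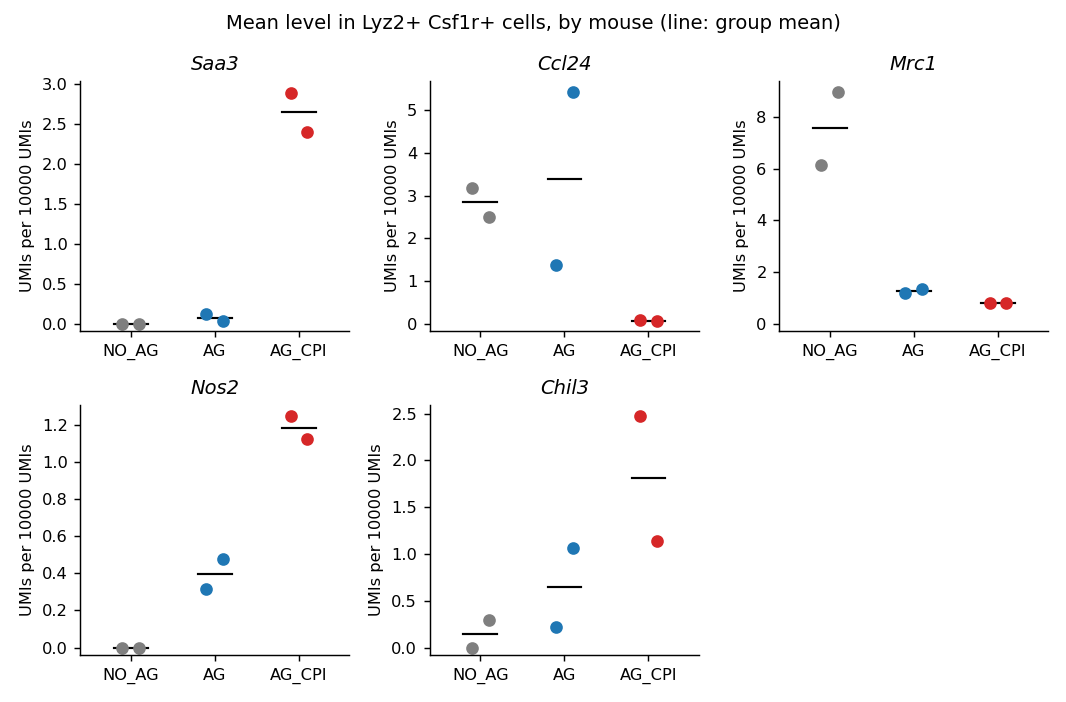
Mean UMIs per 10000 UMIs of a cell (y axis) in Lyz2+ Csf1r+ cells for each of the 5 genes, with 1 point per mouse and a line at the mean of the 2 mice of NO_AG, AG and AG_CPI. Saa3 sits at 0 in NO_AG and at 2.89 and 2.40 in AG_CPI, whereas Ccl24 sits at 3.18 and 2.50 in NO_AG and at 0.0835 and 0.0671 in AG_CPI.

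Saa3, the acute-phase gene, was found mainly in the AG_CPI mice. Its mean level in the gate was 0 in both NO_AG mice, 0.119 and 0.0410 UMIs per 10000 in the AG mice, against 2.89 and 2.40 in the AG_CPI mice. These levels rest on 0 and 0, 17 and 9, and 349 and 319 UMIs. Both AG_CPI mice lay above all 4 others, and the group means were 0.0800 ± 0.0551 (SD, n = 2) in AG and 2.64 ± 0.351 in AG_CPI. With 0 counts the limits in NO_AG are 0.193 and 0.249, above both AG levels, so these groups could not be told apart at this depth (log2 change 0.85, SE 0.34, limma adjusted p 0.145, 95% interval 0.07 to 1.64). Between AG_CPI and NO_AG the level was at least 24.1-fold higher, taking 3 UMIs over the NO_AG group as its floor. Saa3 was chosen by these AG_CPI levels, and besides the AG_CPI mice only AG 1 reached the filter level of 0.1, so the test that follows is not independent of the choice. The rise passed it (log2 change 4.87, SE 0.34, limma adjusted p 0.000177), and it passed in all 18 alternatives, with log2 changes from 2.73 to 7.15. Without AG_CPI 1 it was 4.73 (adjusted p 0.00423), and without Cd207-positive cells 4.95 (adjusted p 0.00255). The AG change passed in 1 of 18 alternatives, with a pseudocount of 0.02 (2.27, adjusted p 0.0422).

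Saa3 was found in 8 of 156 and 5 of 440 cells of the AG mice, or 5.13% and 1.14%, and in 48 of 226 and 32 of 194 cells of the AG_CPI mice, or 21.2% and 16.5%. In NO_AG it was found in 0 of 37 and 0 of 25 cells, where the floor of 3 cells allows shares of cells with a UMI of up to 8.11% and 12.0% (Wilson 95% upper limits 9.41% and 13.3%). The highest cell of each AG_CPI mouse held 42 and 54 UMIs, 12.0% and 16.9% of the total, and the 5 highest held 43.3% and 53.0%. With each cell thinned to 1500 UMIs, the shares were 1.28% and 0.455% in AG and 12.8% and 11.3% in AG_CPI, so the gap was present at equal depth. Of all 751 UMIs of Saa3 in the series, 694 lay in the gate, or 92.4%.

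Ccl24, the eosinophil attractant, ran the other way. Its mean level was 3.18 and 2.50 in the NO_AG mice, 1.38 and 5.41 in the AG mice, against 0.0835 and 0.0671 in the AG_CPI mice. The UMIs behind these were 59 and 16, 158 and 806, and 11 and 4. Both AG_CPI mice lay below all 4 others, while the AG mice lay on either side of the NO_AG mice. Group means were 2.84 ± 0.477 (SD, n = 2), 3.40 ± 2.85 and 0.0753 ± 0.0115. The level in NO_AG was 37.7 times that in AG_CPI as a ratio of group means (log2 change -3.84, SE 0.50, limma adjusted p 0.00199), and without AG_CPI 1 the change was -3.91 (adjusted p 0.0169). The AG change missed the threshold (0.23, SE 0.50, adjusted p 0.819), and the 95% interval of -0.93 to 1.38 leaves room for a change in either direction. In cells with no UMI of Cd207 the values were -0.39 (adjusted p 0.689) for AG and -4.54 (adjusted p 0.00811) for AG_CPI, each against NO_AG. With the gate on Csf1r alone they were 3.05 (adjusted p 0.00452) and -0.98 (adjusted p 0.269).

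Ccl24 was found in 5 of 37 and 8 of 25 cells of the NO_AG mice, 14 of 156 and 64 of 440 of the AG mice, and 2 of 226 and 3 of 194 of the AG_CPI mice. After thinning the shares were 8.11% and 28.0%, 5.13% and 11.4%, and 0.885% and 0.515%. In 5 of the 6 mice the 5 highest cells held 81.25% or more of its UMIs, and in AG 2, with 806 UMIs, the highest cell held 10.3% and the 5 highest 40.1%. One cell of NO_AG 1 held 54 of its 59 UMIs, one of AG 1 held 95 of 158, and one of AG_CPI 1 held 10 of 11. Without the highest cell of each mouse the levels were 0.449 and 1.91 in NO_AG, 0.693 and 4.97 in AG, against 0.0229 and 0.0371 in AG_CPI. The AG_CPI mice thus stayed below the others, and the NO_AG mean was 1.18 in place of 2.84. This alternative was chosen after seeing the data.

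**Figure D2:**
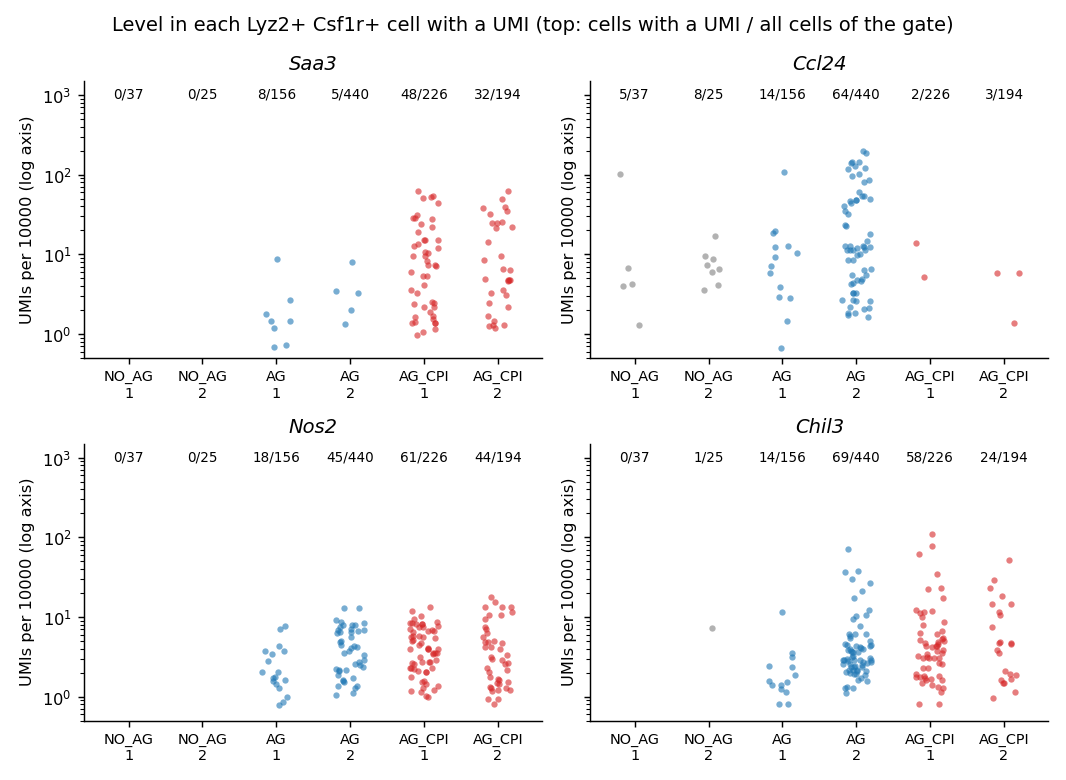
Each point is a Lyz2+ Csf1r+ cell with at least 1 UMI of Saa3, Ccl24, Nos2 or Chil3, at its UMIs per 10000 UMIs (log axis), by mouse, and the numbers above give cells with a UMI over all gate cells. Saa3 points number 48 and 32 in the AG_CPI mice against 8 and 5 in the AG mice, and Ccl24 points number 64 in AG 2 against 2 and 3 in the AG_CPI mice.

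Nos2 encodes the inducible enzyme that makes nitric oxide from arginine. Its mean level was 0 in both NO_AG mice, 0.314 and 0.475 in the AG mice, against 1.25 and 1.12 in the AG_CPI mice. The 3 groups did not overlap. With 0 counts the limits of the level in NO_AG are 0.193 and 0.249, below both AG levels. Nos2 was found in 0 of 37 and 0 of 25 cells of NO_AG (Wilson 95% upper limits 9.41% and 13.3%). It was found in 18 of 156 and 45 of 440 cells of AG, or 11.5% and 10.2%, both below the upper limit of NO_AG 2. In AG_CPI it was found in 61 of 226 and 44 of 194 cells. After thinning the shares were 1.28% and 4.55% in AG and 11.1% and 10.3% in AG_CPI. Against NO_AG the level was at least 3.425-fold higher in AG (log2 change 2.35, SE 0.30, limma adjusted p 0.00249) and at least 10.6-fold higher in AG_CPI (3.77, SE 0.30, adjusted p 0.000273). Nos2 reached the filter level of 0.1 only in the AG and AG_CPI mice, which also entered the choice of genes. Tests of Nos2 against NO_AG thus favoured a rise and are not independent of the choice. The AG_CPI rise passed in all 18 alternatives and was 3.70 without AG_CPI 1 (adjusted p 0.00912). The AG rise passed in 17, and without AG 2 it was 2.14 (adjusted p 0.0546). Without Cd207-positive cells the rises were 2.36 (adjusted p 0.0183) and 3.84 (adjusted p 0.00388).

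Mrc1, the mannose receptor, was found in 45.9% and 48.0% of gate cells in NO_AG, 12.2% and 19.3% in AG, against 18.1% and 18.0% in AG_CPI. Thinned to 1500 UMIs these shares were 32.4% and 44.0%, 6.41% and 11.6%, and 6.64% and 8.25%. Its mean level was 6.14 and 8.97 in the NO_AG mice, 1.18 and 1.35 in the AG mice, against 0.792 and 0.803 in the AG_CPI mice. The 3 groups again did not overlap, with means of 7.55 ± 2.00 (SD, n = 2), 1.27 ± 0.122 and 0.797 ± 0.00801. The level in NO_AG was 5.96 times that in AG (log2 change -2.20, SE 0.23, limma adjusted p 0.00111) and 9.47 times that in AG_CPI (-2.79, SE 0.23, adjusted p 0.000302). The Cd207-positive cells of NO_AG held 2 and 0 UMIs of Mrc1, and without Cd207-positive cells the changes were -2.84 (adjusted p 0.00282) and -3.50 (adjusted p 0.00109). With a gate on Csf1r alone, which adds 227 and 166 cells without Lyz2 in NO_AG, the values were 0.36 (adjusted p 0.215) and -0.01 (adjusted p 0.964). Those added cells held 1 UMI of Mrc1 in all. Without AG_CPI 1 the AG_CPI value was -2.79 (adjusted p 0.00589).

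Chil3, the chitinase-like protein also called Ym1, varied widely between mice of a group. Its mean level was 0 and 0.291 in the NO_AG mice, 0.223 and 1.06 in the AG mice, against 2.47 and 1.14 in the AG_CPI mice. AG 1 lay below NO_AG 2, whose value rests on 3 UMIs in 1 cell. Chil3 was found in 14 of 156 and 69 of 440 cells of the AG mice, and in 58 of 226 and 24 of 194 cells of the AG_CPI mice. After thinning the shares were 1.92% and 7.73% in AG, against 16.8% and 6.70% in AG_CPI, and these groups overlapped. In AG the change missed the threshold (log2 change 1.76, SE 0.73, limma adjusted p 0.156, 95% interval 0.09 to 3.42), and it passed in 4 of 18 alternatives. Over the 18 alternatives it ran from 0.82 to 2.86, and without NO_AG 2 it was 2.68. AG_CPI was higher than NO_AG (3.34, SE 0.73, adjusted p 0.0183). This call held in 14 of 18 alternatives and was lost without AG_CPI 1 (2.81, adjusted p 0.153), without AG_CPI 2 (3.87, adjusted p 0.0534), in cells with no Cd207 (3.18, adjusted p 0.0639) and with no filter on low values (3.41, adjusted p 0.0679).

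The difference between AG_CPI and AG, for which the genes were chosen, is described without a test. Saa3 in AG_CPI was 33.05 times its mean in AG, and Nos2 2.998 times. Ccl24 in AG was 45.1 times its mean in AG_CPI, and Mrc1 1.59 times. Chil3 in AG_CPI was 2.81 times its mean in AG, with 1.14 in AG_CPI 2 close to 1.06 in AG 2. In limma 0.013% of all genes passed in this comparison, 1 of 7686, and 200 had an unadjusted p under 0.05. Both AG_CPI mice lay above both AG mice in 16% of all genes and below in 22.1%. Just inside the gate, among cells with 1 UMI of Csf1r, Saa3 in AG_CPI averaged 2.87 and 1.43 UMIs per 10000, and just outside it, in cells with Lyz2 and no Csf1r, 0.297 and 0.241. Ccl24 in AG averaged 1.05 and 8.65 just inside and 0.616 and 3.33 just outside.

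**Figure D3:**
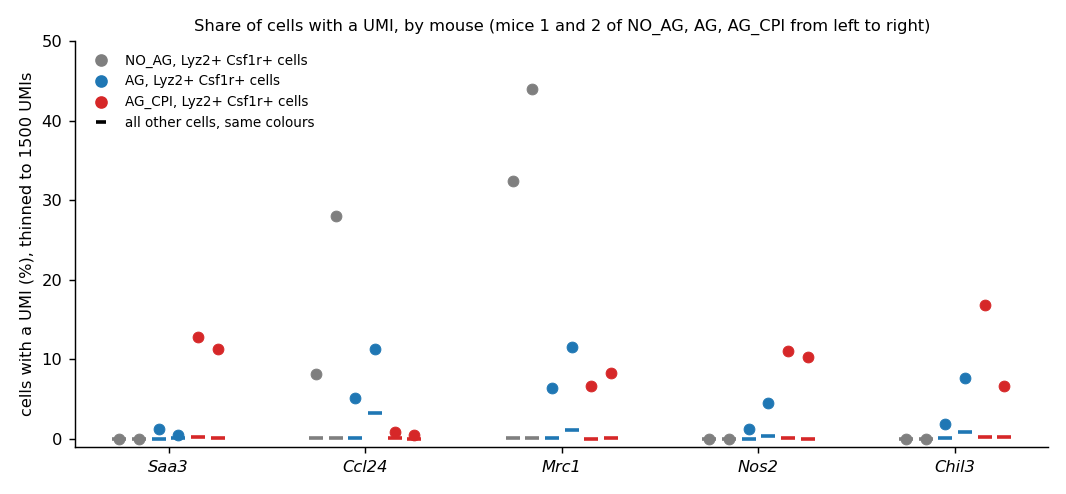
Percent of cells with at least 1 UMI after thinning each cell to 1500 UMIs (y axis), for each gene and mouse, with mice 1 and 2 of NO_AG, AG and AG_CPI from left to right, points for Lyz2+ Csf1r+ cells and dashes for all other cells. The dash of AG 2 for Ccl24 reaches 3.22%, while those of the other 5 mice stay at or below 0.142%.

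Other cells served as the background that free RNA could give. In 5 of the 6 mice, at most 0.464% of other cells had a UMI of any 1 of the 5 genes, with median depths of 2376 to 4759.5 UMIs in those cells against 3834 to 7399 in the gate. AG 2 was the exception for Ccl24, found in 4.24% of its 4224 other cells (95% Wilson interval 3.67% to 4.89%), Mrc1 in 1.61%, Chil3 in 1.42% and Nos2 in 0.710%. Of 2793 UMIs of Ccl24 in AG 2, 28.9% lay in the gate, 13.8% in cells with Lyz2 alone, 29.2% in cells with Csf1r alone and 28.1% in cells with neither. In the 145 cells of AG 2 with Csf1r alone, 17 held Ccl24 at a mean of 21.5 UMIs per 10000 over all 145. Of all 2241 UMIs of Ccl24 outside the gate in the series, 1987 lay in AG 2. In the other mice, with 11 to 171 UMIs of Ccl24 in all cells, the gate held 45.4% and 11.7% of them in NO_AG, 92.4% in AG 1, and 20.8% and 36.4% in AG_CPI.

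Cells of other types were then checked by gates of their own. In a keratinocyte gate (Krt5 and Krt14 without Ptprc), Ccl24 was found in 57 of 1840 cells of AG 2 and in 0 to 3 cells of each other mouse. The same keratinocytes of AG 2 held Il1b in 169 cells, Ifng in 117 and Il4 in 59. Ccl24 was the 1 member that passed the filter in this gate, and its change between AG and NO_AG missed the threshold (0.25, 95% interval -0.97 to 1.46, limma adjusted p 0.989). The other comparisons there gave -0.76 for AG_CPI against AG (adjusted p 0.723) and -0.51 for AG_CPI against NO_AG (adjusted p 0.710). Of all 8455 genes 0.343%, 0.0118% and 0.201% passed in these comparisons, in the same order. In gates for T cells (Cd3e and Cd3g) and fibroblasts (Col1a1 and Col1a2 without Ptprc) 0 of the 5 passed the filter. Whether free RNA or shared droplets placed these UMIs was not tested.

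Single cells showed which of the 5 genes occurred together. Saa3 and Ccl24 did not meet in any cell of AG_CPI, with 48 and 32 cells positive for Saa3 and 2 and 3 for Ccl24, and they met in 1 cell of AG 2. Cells of a mouse are not replicates, so these counts and the shares of co-detection that follow are descriptions.

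Mrc1 and Ccl24 were often found in the same cells. All 5 and all 8 Ccl24-positive cells of the NO_AG mice held Mrc1, and all of them held Retnla, a secreted resistin-like protein of the alternative state. After thinning, Mrc1 was found in 35.7% and 37.5% of Ccl24-positive cells of AG, against 3.52% and 7.18% of the other gate cells. Retnla-positive gate cells numbered 8 and 11 in NO_AG, 10 and 23 in AG, against 2 and 5 in AG_CPI. Within them Mrc1 averaged 9.75 and 19.4 in NO_AG, 12.7 and 9.13 in AG, against 10.9 and 14.0 in AG_CPI, so the ranges of the 3 groups overlapped in these few cells. In Retnla-negative cells Mrc1 averaged 5.14 and 0.765, 0.390 and 0.924, and 0.702 and 0.455. Nos2 was found in 0 of the 59 Retnla-positive cells, of which the 8 and 11 of NO_AG come from mice with no Nos2 in the gate. In the AG_CPI mice Nos2 was in 17.1% and 11.4% of Mrc1-positive cells and in 29.2% and 25.2% of Mrc1-negative ones, or after thinning in 4.88% and 0 against 12.4% and 12.6%.

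Cells with Cd207 and cells without C1qa were set apart next. Saa3 and Ccl24 had 0 UMIs in all 78 gate cells with Cd207. Without those cells Mrc1 averaged 11.8 and 14.0 in NO_AG, 1.35 and 1.38 in AG, against 0.817 and 0.819 in AG_CPI. Saa3 in AG_CPI averaged 3.07 and 2.42 in cells with C1qa, the complement gene of resident macrophages, and 1.39 and 2.15 in cells without. Chil3 in AG_CPI averaged 13.9 and 3.17 in cells without C1qa and 1.11 and 0.924 in cells with it. Those C1qa-negative cells numbered 24 and 19, of which 11 and 5 held Chil3, and 5 cells of each mouse held 88.0% and all of the Chil3 UMIs in them, so these means rest on few cells.

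For Saa3 and for Ccl24, genes were ranked by how far their thinned share in positive cells exceeded that in the other gate cells, by the smallest difference over mice. For Saa3 in AG_CPI they were Trem2, a lipid receptor, in 56.3% and 68.8% of Saa3-positive cells against 33.1% and 35.2% of the others, then Tnfaip2 (47.9% and 43.8% against 24.2% and 23.5%), Fabp5, the LPS co-receptor Cd14 and Rnf149. For Ccl24 in AG they were Mrc1, the chemokine Ccl9 (35.7% and 26.6% against 9.86% and 5.85%), 0610012G03Rik, Zeb2 and Naca. Median depth differed little between Saa3-positive and negative cells of AG_CPI, with 5901 and 6931 UMIs against 5869 and 6188.5.

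Over the 6 mice, the genes whose gate means ran most like Saa3 on the log2 scale were Mfsd1 (Pearson r 0.983), Cd22 (0.975), Il1a (0.974), Nrp2 (0.970) and Tmeff1 (0.967). For Il1a, a cytokine of the IL-1 family, the mean level was 0 in both NO_AG mice, 0.00505 and 0.0300 in AG, against 0.270 and 0.195 in AG_CPI. Those most like Ccl24 were Krt17 (0.976), Nfib (0.959), Ndufa4 (0.952), Ptn (0.952) and Prkag1 (0.947). Krt17 is a keratinocyte keratin, and its gate mean was 1.18 and 1.37 in NO_AG, 0.903 and 2.17 in AG, against 0.161 and 0.270 in AG_CPI. These are correlations over 6 mice in 3 groups, picked as the highest of 7686 genes, and carry no test.

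Lists of related genes were followed in the gate. Of 23 listed genes of classical activation 17 were tested, and 12 rose and 0 fell in AG over NO_AG, against 8.59% of all genes higher and 4.05% lower, with a median log2 change of 2.34 against 0.08 for all genes. Among them, by smallest p, were Acod1, which makes itaconate (3.66, limma adjusted p 0.000272), the chemokine Cxcl10 (5.14, adjusted p 0.000547), the receptor Cd40 (2.79, adjusted p 0.000595) and Cxcl9 (6.02, adjusted p 0.000946). In AG_CPI over NO_AG again 12 rose and 0 fell, against 9.82% and 5.48% of all genes, with a median of 2.29. The AG count was 8 without AG 1 or without AG 2 (2.55% and 2.32% of all genes called), the AG_CPI count was 9 without AG_CPI 1 (4.03%), and in cells with no Cd207 they were 11 and 9 (10.5% and 12.6%). Acod1 and Ptgs2 had 0 UMIs in both NO_AG mice, and with them at their lower bounds (10.0-fold and 4.06-fold in AG) the AG median was 2.29. Acod1, Ptgs2 and Gbp5 reached the filter level of 0.1 only in the AG and AG_CPI mice, where they are high, which favours a rise. Irf5, Cd80, Tnf, Cd86 and Ciita passed in neither comparison, and Ciita, the regulator of MHC class II genes, had values of -0.23 in AG and -0.22 in AG_CPI. In AG_CPI against AG 0 of the 17 passed, against 0.013% of all genes.

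Of 20 listed genes of alternative activation 18 were tested, and they split. In AG over NO_AG 5 rose and 7 fell, against 8.59% and 4.05% of all genes, with a median of 0.46. Il1rn, the IL-1 receptor antagonist, rose by 5.12 (limma adjusted p 0.000371) and Tgm2, a transglutaminase, by 3.59 (adjusted p 0.000512). F13a1, a clotting factor subunit, changed by -2.34 (adjusted p 0.0026) and the folate receptor Folr2 by -2.68 (adjusted p 0.00715). Il4ra, Socs2 and Pdcd1lg2 also rose, and Cd163, Clec10a, Retnla, Mgl2 and Cd209a also fell, which are lectin, scavenger or secreted genes of resident skin macrophages and dendritic cells. Cd209a reached the filter level of 0.1 only in the NO_AG mice, where it is high, which favours a fall. Tgm2, Socs2 and Pdcd1lg2 reached it only in the AG and AG_CPI mice, which favours a rise. In AG_CPI over NO_AG 4 rose and 7 fell, against 9.82% and 5.48% of all genes, with a median of -0.97. Without AG 2 the AG counts were 2 and 1 (2.32% of all genes called), without AG_CPI 1 the AG_CPI counts were 2 and 6 (4.03%), and without Cd207-positive cells 4 and 6 in AG (10.5%) and 3 and 7 in AG_CPI (12.6%). Gating on Csf1r alone, 8 rose and 0 fell in AG (24.2% of all genes), and 7 rose and 3 fell in AG_CPI (34.6%), where the list median turned to 0.22. Without NO_AG 2 the AG median was -0.74, and without NO_AG 1 the AG_CPI median was -0.02.

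Retnla, set beside Ccl24 and Mrc1 above, averaged 76.5 and 163.5 in NO_AG, 30.1 and 11.8 in AG, against 2.83 and 3.41 in AG_CPI. The 3 groups did not overlap, and it fell by 2.30 in AG (limma adjusted p 0.0161) and by 4.84 in AG_CPI (adjusted p 0.00049), each on the log2 scale against NO_AG. The AG_CPI value was -4.72 without AG_CPI 1 (adjusted p 0.00782) and -5.53 in cells with no Cd207 (adjusted p 0.00388), against -1.87 with the gate on Csf1r alone. The AG call was lost without AG 2 (-1.59, adjusted p 0.133) and with no filter on low values (-2.18, adjusted p 0.0786), and with the gate on Csf1r alone its value turned to 0.24 (adjusted p 0.709).

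**Figure D4:**
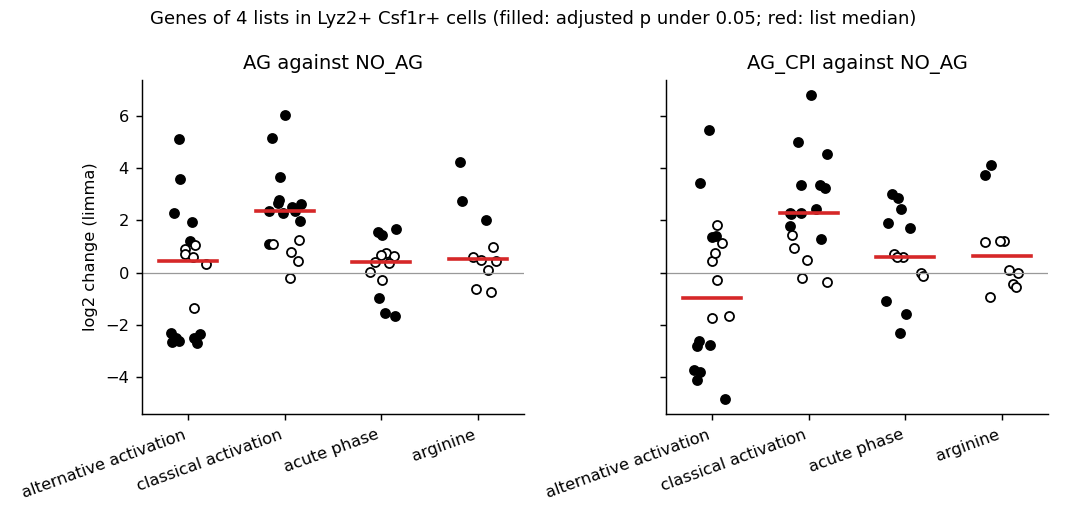
Log2 changes in Lyz2+ Csf1r+ cells (y axis, limma) of the tested genes of 4 lists in AG against NO_AG and AG_CPI against NO_AG, with filled points for an adjusted p under 0.05 and red lines at list medians. The called genes of the classical list lie above 0, with list medians of 2.34 and 2.29, and the alternative list splits into called genes on either side of 0.

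Arginine handling around Nos2 was represented by 10 genes, all tested. In AG over NO_AG 3 rose and 0 fell, against 8.59% and 4.05% of all genes, namely the arginine transporter Slc7a2 (2.72, limma adjusted p 0.000685), Ass1, which recycles citrulline to arginine (4.23, adjusted p 0.00367), and Gatm (2.01, adjusted p 0.048). In AG_CPI over NO_AG Slc7a2 (3.72, adjusted p 0.000166) and Ass1 (4.11, adjusted p 0.00321) rose, 2 of 10 against 9.82% of all genes, also without AG_CPI 1 and without Cd207-positive cells. The AG count was 1 without AG 1 or without AG 2 (2.55% and 2.32% of all genes called), and 5 without NO_AG 2 (28.4%). Without NO_AG 1 the AG_CPI count was 4 (36.3%), so these counts moved in the same direction as the calls over all genes. Odc1, which takes ornithine towards polyamines, did not pass in either comparison (0.45 and 0.11). Slc7a2 reached the filter level only in the AG and AG_CPI mice, where it is high, which favours a rise.

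The acute-phase list around Saa3 had 13 genes tested of 21. In AG over NO_AG 3 rose and 3 fell, against 8.59% and 4.05% of all genes. The transcription factor Cebpb rose by 1.54 (limma adjusted p 0.00176), the receptor Tlr2 by 1.43 (adjusted p 0.00964) and Fpr2, a receptor of serum amyloid A, by 1.68 (adjusted p 0.0474), while Cebpd (-1.56), Cd36 (-1.67) and Il6ra (-0.98) fell. In AG_CPI over NO_AG 5 rose and 3 fell, against 9.82% and 5.48% of all genes, and the haptoglobin gene Hp (2.84, adjusted p 0.00594) and S100a8 (1.71, adjusted p 0.0307) joined those that rose. Hp and Fpr2 had 0 UMIs in both NO_AG mice, and in AG_CPI they were at least 5.34-fold and 5.26-fold higher. Both reached the filter level of 0.1 only in AG 2 and the AG_CPI mice, where they are high, which favours a rise. Without AG 2 the AG counts were 1 and 0 (2.32% of all genes called), and they were 2 and 0 without AG 1 (2.55%) and 6 and 3 without NO_AG 1 (34.8%). The AG_CPI counts were 3 and 1 without AG_CPI 1 (4.03%) and 8 and 3 without NO_AG 1 (36.3%), and without Cd207-positive cells 1 and 1 in AG (10.5%) and 4 and 1 in AG_CPI (12.6%). The related genes Saa1 and Saa4 had 0 UMIs in the gate of every library. Of the 9 listed eotaxin and eosinophil genes 0 were tested, and Ccl11 and the eotaxin receptor Ccr3 did not reach the filter. Of the 7 chitinase-like and mannose-receptor relatives only Ly75 was tested, and it changed by -2.07 in AG and -1.86 in AG_CPI (limma adjusted p 0.0114 and 0.015). Both calls were lost without AG 1 (adjusted p 0.123 and 0.0574) and without AG 2 (0.119 and 0.0573), and the AG_CPI call also without AG_CPI 1 (-2.09, 0.081) or AG_CPI 2 (-1.62, 0.163). Both were lost as well with no filter on low values (0.0525 and 0.0628), and the AG_CPI call in cells with C1q (0.0632). Ly75 reached the filter level only in the NO_AG mice, and in cells with no UMI of Cd207 it did not reach the filter.

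Receptors and signalling genes of the inducing cytokines numbered 15, all tested. In AG over NO_AG 3 rose, Il4ra (1.21), Il2rg (2.52) and Tnfrsf1a (1.04), and Jak1 fell (-1.17), so 4 of 15 passed against 12.6% of all genes. In AG_CPI over NO_AG 5 rose and 1 fell, against 15.3% of all genes, with Csf2ra (0.95) and Csf2rb (1.32) added. Il4ra encodes a receptor chain for IL-4 and IL-13, and Il2rg the chain shared by several interleukin receptors. Without AG 1 or without AG 2, 0 of the 15 passed in AG (2.55% and 2.32% of all genes called). Without AG_CPI 1 or AG_CPI 2, 1 rose in AG (6.57% and 6.64%) and 1 in AG_CPI (4.03% and 4.35%). Without NO_AG 1, 8 and 11 rose (34.8% and 36.3%), without NO_AG 2, 6 and 6 (28.4% and 30.9%), and without Cd207-positive cells 2 and 3 (10.5% and 12.6%). On the deposited scale alone 1 rose in AG and 2 in AG_CPI, against 11.9% and 15.9% of all genes called.

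The inducing cytokines were followed in all cells, in T cells and in the gate. In the T cell gate Ifng averaged 0.869 and 1.19 in NO_AG, 4.52 and 2.76 in AG, against 3.86 and 3.88 in AG_CPI. Il13 in all cells had 493 and 487 UMIs in NO_AG, 579 and 169 in AG, against 12 and 68 in AG_CPI, in libraries of unequal depth, or 0.340 and 0.401, 0.498 and 0.128, and 0.0329 and 0.109 per 10000. Both AG_CPI mice lay below all 4 others for Il13, and this difference was not tested. Il4 in all cells was highest in AG 2, with 444 UMIs against 5 to 44 in the others, and Tslp, an epithelial cytokine, was also highest there, with 241 against 0 to 22. AG 2 was also the mouse with the most Ccl24, and a link between Ccl24 and these cytokines was not tested. Csf1 in the T cell gate averaged 0.0721 and 0.110, 0.447 and 0.232, and 1.27 and 1.35. Il1b in the gate itself averaged 0.736 and 1.93 in NO_AG, 4.96 and 7.65 in AG, against 12.5 and 9.63 in AG_CPI, and it rose over NO_AG by 2.51 in AG (limma adjusted p 0.00529) and by 3.36 in AG_CPI (adjusted p 0.00115), or by 3.16 without AG_CPI 1 (adjusted p 0.0143). The AG call of Il1b was lost without AG 1 (2.79, adjusted p 0.0568) and without AG 2 (2.24, adjusted p 0.0988). Il1a had 0 UMIs in both NO_AG mice, was at least 2.163-fold higher in AG_CPI and passed there (limma adjusted p 0.00487, and 0.0492 without AG_CPI 1), but not in AG (adjusted p 0.654). It reached the filter level of 0.1 only in the AG_CPI mice, the group where it is high, so the filter itself favoured a rise. Tnf in the gate averaged 1.04 and 0.888 in NO_AG, 1.92 and 1.09 in AG, against 0.457 and 0.743 in AG_CPI, where both mice lay below all 4 others. Its log2 changes missed the threshold, at 0.79 in AG (limma adjusted p 0.165) and -0.38 in AG_CPI (adjusted p 0.506). In cells with no UMI of Cd207 they were 2.23 (adjusted p 0.0253) and 1.03 (adjusted p 0.143), and with the gate on Csf1r alone -0.51 (adjusted p 0.26) and -1.50 (adjusted p 0.00262).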

How the data were processed

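Skin cells of 6 mice were profiled with a 10x 5′ kit, per the labels' protocols, and Cell Ranger 3.1 and mm10 are named in the submitters' processing notes. The authors deposited log10 values, log10(1 + UMIs per 10000 UMIs of a cell). Whole UMIs were recovered from 100% of values (tolerance 0.02), with 1501 to 14995 UMIs per cell. Because the unit is log10, the main test was limma 3.58.1 (trend, R 4.3.3) on log2(TMM-scaled mean over cells + 0.1), with the 3 groups in 1 fit and the mouse as replicate. Genes needed 10 UMIs and a mean of 0.1 per 10000 in 2 libraries, and libraries needed 10 cells. Shares of cells carry Wilson 95% intervals in the tables, which cover counting error only, and the floor is 3 counts. Shares of gate cells with a UMI of the 5 genes are given at full depth and thinned to 1500 UMIs, and marker shares at full depth. Doublets were left in the main analysis, and an alternative removed 1.38% to 3.98% of cells by Scrublet scores and cell filters. The genes, lists and tests were chosen with earlier results of these data known. Named genes followed a rule: the 5 genes, the 5 closest by correlation, the 5 with the largest excess of co-detection, and 2 to 4 genes per list by smallest p. Other genes named were chosen after their values were seen. A further member and a listed gene are not reported here. Correlations of the deviations of same-numbered mice ran from -0.137 to 0.173, and with 2 mice a group they cannot exclude a pairing. The fit was also run on simulated data, with Poisson counts and a spread between mice that was set beforehand. That run says nothing about the spread between these mice.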

Additional observations from a re-analysis of the deposited data

How the results depend on the processing

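Under the alternatives, 272 log2 changes of the 5 genes kept their direction and side of the threshold, 7 lost the call, 6 gained it, 13 without a test moved and 8 reversed. Ccl24 in AG against NO_AG became -0.03 on the deposited scale, -0.69 to 1.14 without 1 mouse (lowest without AG 2), -0.39 without Cd207-positive cells and -0.18 in cells with C1q. Mrc1 in the same comparison became 0.36 with the gate on Csf1r alone. In keratinocytes Ccl24 ran from -0.51 to 1.01 without 1 mouse in AG against NO_AG (-0.51 without AG 2, -0.25 without NO_AG 1), and from -1.52 to 0.0 (without AG 2) in AG_CPI against AG. The cause was not tested.

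Of all genes, AG against NO_AG called 971, and 641 with no filter, 1955 with Csf1r alone and 178 to 2672 without 1 mouse. AG_CPI against NO_AG called 1176, and 725 without cells holding Cd3e, Krt5 or Krt14, 2793 with Csf1r alone and 310 to 2789 without 1 mouse. AG_CPI against AG called 1, and 0 with a pseudocount of 0.02, with no filter, without Cd207-positive cells and without cells holding Cd3e, Krt5 or Krt14, 3 with summed UMIs, 101 with Csf1r alone and 0 to 23 without 1 mouse. In keratinocytes AG against NO_AG called 29, and 2 with no filter, 57 with summed UMIs and 0 to 58 without 1 mouse. AG_CPI against NO_AG called 17 there, and 2 with a pseudocount of 0.5, 0 with no filter, 40 with summed UMIs and 1 to 40 without 1 mouse. AG_CPI against AG called 1 there, and 0 with no filter or summed UMIs and 0 to 3 without 1 mouse. In fibroblasts AG against NO_AG called 6, and 14 and 0 with pseudocounts of 0.5 and 0.02, 1 with no filter, 12 with summed UMIs and 0 to 56 without 1 mouse. In T cells AG against NO_AG called 742, and 292 with no filter and 156 to 639 without 1 mouse, AG_CPI against NO_AG called 1730 and 754 to 2042, and AG_CPI against AG called 55, and 31 and 83 with pseudocounts of 0.5 and 0.02, 0 with no filter, 93 with summed UMIs and 0 to 132. The gate share was 0.32% in NO_AG and 6.12% in AG_CPI after thinning.

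With the replicate number as a block the gate called 824 and 1000 genes against NO_AG and 1 between AG_CPI and AG, and no call of the 5 genes changed. The block gave 49, 45 and 2 genes in keratinocytes, 15 in fibroblasts and 761, 1621 and 159 in T cells. Same-numbered mice correlated at -0.015, 0.01 and -0.014 in the gate and at 0.173, 0.1 and 0.099 in keratinocytes. In T cells the values were 0.105, -0.012 and -0.137, and in fibroblasts -0.006. With 2 mice a group these values cannot exclude that the numbers pair samples. On the deposited scale the share of calls that were higher was 32.9%, 37.3% and 26.2% in T cells, against 57.1%, 43.6% and 48.4%, for AG against NO_AG, AG_CPI against AG and AG_CPI against NO_AG, and 69.2% against 82.4% in keratinocytes for AG_CPI against NO_AG. With 37 and 25 gate cells in NO_AG, the floor of 3 cells stands at 8.11% and 12.0%.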
